A study of Mus musculus with 24 samples.

Results

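The 8 transcription factors of the oocyte described here are Nobox, Lhx8, Sohlh1, Sohlh2, Figla, Taf4b, Tbpl2 and Pou5f1. They were chosen by name, and each has 1 row in an RNA-seq table of 16572 gene names, so all 8 members were found. The study comprised 24 libraries of mouse oocytes, 4 for RNA-seq, 8 for RRBS and 12 for PBAT, both of which read DNA methylation. Only the RNA-seq is analysed here, and it compared oocytes grown in 5% O2 with oocytes grown in 20% O2. The labels give the strain as C57BL/6 Barb and the age of the ovaries as 7 days, whereas the methods of the study describe a cross of C57 Black6 with SV129. Ovaries were dissociated with enzymes and the whole suspension was plated, so cells of the ovary other than oocytes were also in the dishes. Both groups were of class IV, the largest class, with a diameter of 60 to 70 µm in the labels. The methods of the study, however, give the IV 20% O2 oocytes a range of lower diameters. Culture lasted 9 days in 5% O2 and 14 days in 20% O2 before collection, and the medium was changed more often in 5% O2, so oxygen, culture time and medium changes cannot be told apart. Each group was a pool of oocytes.

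Most of these factors act in a sequence that begins before the follicle forms. Figla, Sohlh1 and Sohlh2 are basic helix-loop-helix (bHLH) proteins, which bind as dimers to a short DNA element called the E-box, and Nobox and Lhx8 are homeobox proteins. All 5 are required for the first follicles to form or to survive, and they regulate genes that only oocytes use, such as those of the zona pellucida. Taf4b and Tbpl2 are germ cell versions of subunits of TFIID, the complex that places RNA polymerase II at a promoter, and Tbpl2 (also called TBP2 or TRF3) takes the place of Tbp in growing oocytes. Pou5f1 (Oct4), a POU and homeobox protein best known from pluripotent cells, is expressed again in oocytes as they grow.

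The table holds 1 value for each condition, so the differences have no replicate check, no SD and no p-value. The labels give 2 libraries per condition, and the value was taken as a pool of both from the column name. The values are RPM (a share of the reads of the column, with no correction for gene length), from which whole numbers of reads could be recovered. The IV 5% O2 column had 132185258 reads and the IV 20% O2 column 40875359, a ratio of 3.23, and the members had from 1613 to 65554 reads. Counting intervals were taken at 95% by the exact Clopper-Pearson method. They set 1 column beside the other, not conditions, and cover counting error only, since the reads carry no molecular identifiers. Differences are log2(RPM + 1) in IV 5% O2 minus IV 20% O2. The genes compared were the 14704 whose mean RPM was 1 or more. Of these, 2753 (18.7%) were at least 2-fold higher in IV 5% O2 and 1356 (9.22%) at least 2-fold lower. The median difference of these genes was 0.26 on the log2 scale, and the differences of the members are therefore also given relative to it. In pooled oocytes, fewer cells of a type and less RNA per cell cannot be told apart.

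The promoters of 7 members were found in RefSeq (GRCm38.p6), and the 250 bases before each start were searched. The 3 shown here are Sohlh1 and Tbpl2, which hold the most E-boxes, and Nobox, the member with the highest level. Each is written 5′ to 3′ along the gene and ends just before the start, with E-boxes (CANNTG) in capitals.
Sohlh1, chr2:25847249-25847498, minus strand: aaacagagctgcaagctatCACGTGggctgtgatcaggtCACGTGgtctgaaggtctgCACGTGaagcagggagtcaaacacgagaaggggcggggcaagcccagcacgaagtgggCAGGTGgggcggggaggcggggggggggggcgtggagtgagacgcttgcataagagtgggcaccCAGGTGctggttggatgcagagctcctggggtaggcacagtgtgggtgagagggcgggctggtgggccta
Tbpl2, chr2:24096596-24096845, minus strand: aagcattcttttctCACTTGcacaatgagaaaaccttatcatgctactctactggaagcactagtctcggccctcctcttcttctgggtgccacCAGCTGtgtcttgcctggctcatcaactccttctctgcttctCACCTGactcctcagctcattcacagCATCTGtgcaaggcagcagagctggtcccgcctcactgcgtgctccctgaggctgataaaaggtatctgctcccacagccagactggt
Nobox, chr6:43309555-43309804, minus strand: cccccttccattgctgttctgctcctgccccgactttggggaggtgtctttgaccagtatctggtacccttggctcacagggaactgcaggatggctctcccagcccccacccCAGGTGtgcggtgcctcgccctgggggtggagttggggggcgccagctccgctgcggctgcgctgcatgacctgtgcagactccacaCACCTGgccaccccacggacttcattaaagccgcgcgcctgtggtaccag

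The E-box was found in 6 of the 7 promoters, with 15 matches in all. It reads as the same element on both strands, and 66.2% of the 32841 RefSeq promoters hold at least 1, so its presence alone sets no member apart. The number of matches varied widely. Sohlh1 had 5, and as many were found in 1.15% of all promoters. Tbpl2 had 4, and as many were found in 3.84%. Nobox and Figla had 2 each, Sohlh2 and Pou5f1 had 1 each, and Lhx8 had none in this window. In Sohlh1, 3 of the 5 E-boxes had the letters CACGTG, which 20 of the 32841 promoters (0.0609%) hold as often; this form was singled out after the sequence had been seen. In Tbpl2, Nobox and the other 4 members it was not found. Elements named for the homeobox members were searched on both strands too. The NOBOX element TAATTG is in 7.17% of all promoters, the LHX8 element TGATTG in 12.7%, the octamer ATGCAAAT in 1.60% and TATAAA in 12.4%. None of the 4 was found in these windows of the 7 members. The RefSeq start of Figla lies 1020 bases from the start of the deposited row, that of Lhx8 99 bases, and those of the other 5 at most 16 bases. The matches describe the letters of these windows, and binding was not measured.

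**Figure D1:**
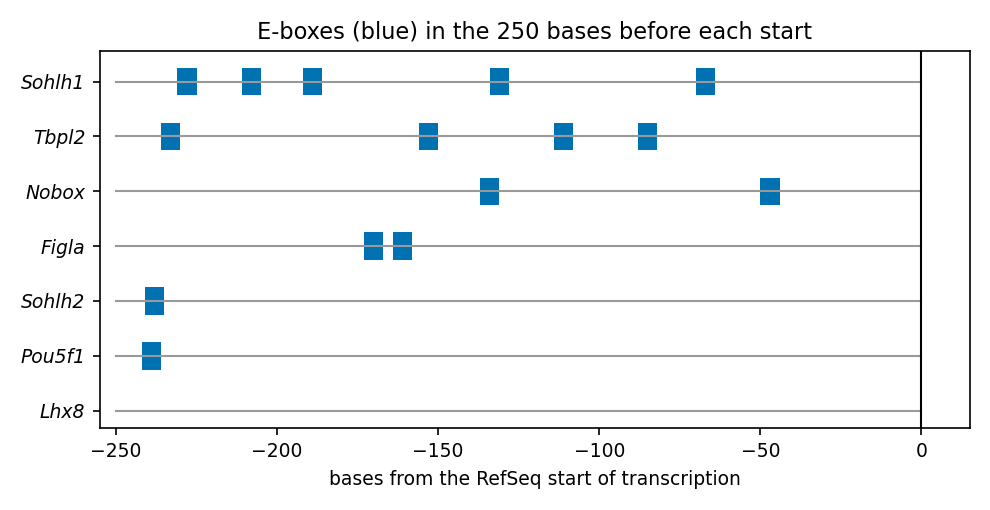
E-boxes (CANNTG) in the 250 bases before the RefSeq start of the 7 members with a promoter, plotted by distance from the start in bases, 1 mark per match. Sohlh1 carries 5 marks and Tbpl2 carries 4, whereas Lhx8 carries none.

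Among the bHLH factors, Sohlh1 was the member that was at least 2-fold lower in IV 5% O2. Sohlh1 (2:25842995-25847248, minus strand) had 46.2 RPM in IV 5% O2 against 121.4 RPM in IV 20% O2. Its difference was -1.37 (interval of the log2 ratio -1.45 to -1.34), or -1.63 relative to the median gene, and 5.51% of the genes compared had a lower one. The deeper IV 5% O2 column held 6112 Sohlh1 reads and the IV 20% O2 column 4961, so the read numbers were similar although the depths were not. Sohlh1 and Sohlh2 can bind each other. Sohlh2 (3:55182028-55209957, plus strand) had 61.6 RPM in IV 5% O2 against 50.2 RPM in IV 20% O2. Its difference of 0.29 (0.23 to 0.37) was 0.03 from the median gene, close to the middle of all genes, and it became -0.02 under median-ratio scaling, where it was 0.0047 relative to the median gene. The ratio of Sohlh2 to Sohlh1 per exonic length was 0.727 in IV 5% O2 and 0.225 in IV 20% O2, a 3.22-fold change (3.03 to 3.43), which a single scaling factor per column does not alter.

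Figla, a bHLH factor needed for zona pellucida gene expression, was lower in IV 5% O2 by less than 2-fold. Figla (6:86016171-86020996, plus strand) had 28.3 RPM in IV 5% O2 against 40.5 RPM in IV 20% O2. The difference was -0.50 (-0.60 to -0.43), or -0.76 relative to the median gene, and 19.1% of the genes compared had a lower one. Figla and Sohlh1 thus differed in the same direction, by unequal amounts: the ratio of Figla to Sohlh1 changed 1.83-fold (1.711 to 1.964).

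The homeobox factors Nobox and Pou5f1 had the highest RPM of all members in IV 5% O2, and both were higher there than in IV 20% O2. Pou5f1 (17:35506018-35510772, plus strand) had 299.1 RPM in IV 5% O2 against 109.9 RPM in IV 20% O2. It was the member at least 2-fold higher in IV 5% O2, with a difference of 1.44 (1.40 to 1.49), or 1.18 relative to the median gene. Of the genes compared, 8.56% had a higher difference. The Pou5f1 value is less certain than the others, since 17.8% of the 50-base windows along its exons (35 of 197) occur elsewhere in the genome, and 17.4% of the 100-base windows (29 of 167). None of the windows of the other 7 members is repeated. An antisense gene, Gm19553, also shares 317 exonic bases with Pou5f1 and had 92.3 RPM in IV 5% O2 against 33.0 RPM in IV 20% O2. The libraries were strand-specific, but whether the reads were counted by strand is not given in the sources used here, so reads of the shared bases cannot be assigned with certainty.

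Nobox, which regulates many oocyte genes, among them Gdf9 and Pou5f1, had 495.9 RPM in IV 5% O2 against 270.7 RPM in IV 20% O2 (6:43303674-43309554, minus strand). Its difference of 0.87 (0.84 to 0.90) stayed under 2-fold and was 0.61 relative to the median gene. Of the genes compared, 22.8% had a higher difference. Nobox was thus higher than the median gene, but not among the most different genes. Lhx8 (3:154306294-154330659, minus strand), a LIM-homeobox factor, had 140.2 RPM in IV 5% O2 against 127.0 RPM in IV 20% O2. The difference of Lhx8 was 0.14 (0.10 to 0.19) as deposited, and -0.18 and -0.06 under median-ratio scaling and quantile normalization. Relative to the median gene it was -0.12 as deposited, -0.15 and -0.12, slightly below that gene under each scaling.

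The 2 TFIID-related factors were close to equal in both conditions or lower in IV 5% O2. Taf4b (18:14783245-14900359, plus strand) had 69.7 RPM in IV 5% O2 against 68.7 RPM in IV 20% O2. It was the only member whose counting interval held 0, with a difference of 0.02 (-0.04 to 0.08), and the difference became -0.29 and -0.18 under the 2 other scalings. Relative to the median gene it was -0.24 as deposited, -0.27 and -0.24. Tbpl2 (2:24071721-24096595, minus strand) had 31.0 RPM in IV 5% O2 against 39.5 RPM in IV 20% O2. The difference of Tbpl2 was -0.34 (-0.43 to -0.27), or -0.60 relative to the median gene, and 23.9% of the genes compared had a lower one.

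Of the 8 members, 5 were higher and 3 lower in IV 5% O2 as deposited, with 2 higher under median-ratio scaling and 3 under quantile normalization. These scalings lower all members together, and relative to the median gene 3 members were higher and 5 lower under each. At least 2-fold differences were found for 1 member in each direction, Pou5f1 and Sohlh1, where 18.7% and 9.22% of all genes compared were as far apart. The count of 1 member in each direction held under both scalings. The shares of all genes did not, at 12.0% higher and 13.6% lower under median-ratio scaling and 12.2% and 12.5% under quantile normalization. The median difference of the members was 0.08, beside 0.26 over all genes compared, and Nobox, Sohlh2 and Pou5f1 were the members above the median gene. The members' summed RPM was 1172 in IV 5% O2 and 827.8 in IV 20% O2. Nobox and Pou5f1 made up 67.8% of that sum in IV 5% O2 and 46.0% in IV 20% O2. Without them the sum was 377 RPM in IV 5% O2 against 447.2 RPM in IV 20% O2, so the higher total in IV 5% O2 rested on these 2 genes.

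**Figure D2:**
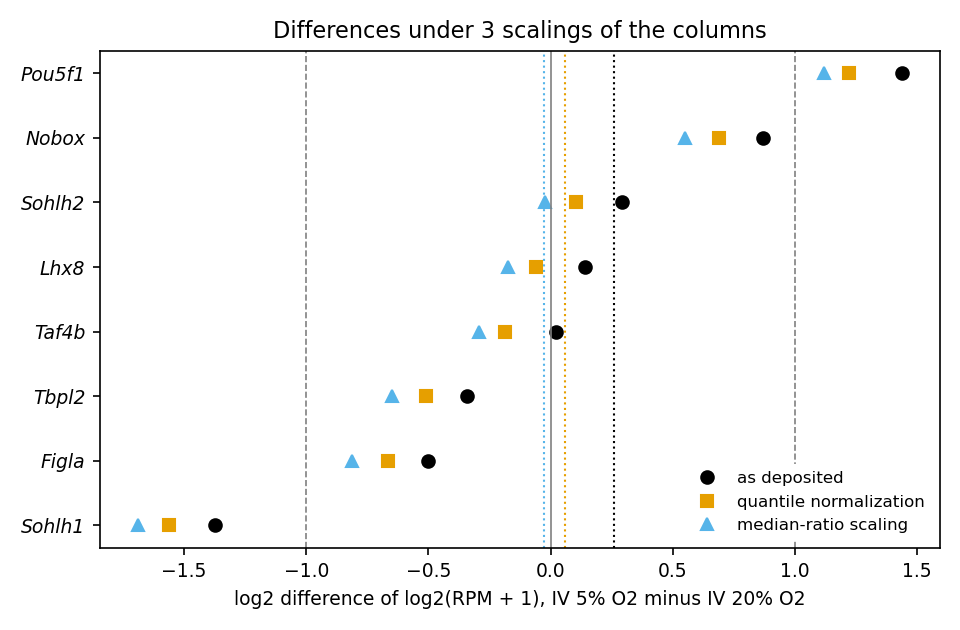
Log2(RPM + 1) in IV 5% O2 minus IV 20% O2 for each of the 8 members, as deposited, after median-ratio scaling and after quantile normalization, with dashed lines at 2-fold and a dotted line at the median of all genes compared for each scaling. Pou5f1 and Nobox stay above 0 and Sohlh1, Figla and Tbpl2 below 0 under all 3, whereas Lhx8, Sohlh2 and Taf4b lie nearer 0 and change sign under at least 1 scaling.

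**Figure D3:**
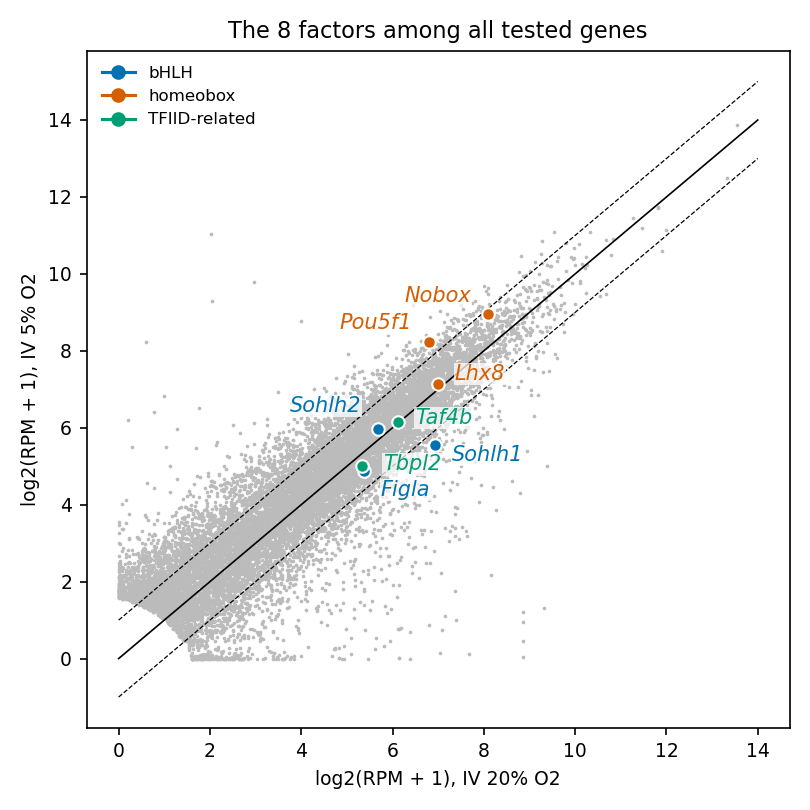
Log2(RPM + 1) in the IV 5% O2 column (vertical) and the IV 20% O2 column (horizontal) for the 14704 genes compared (grey) and the 8 members (named, coloured by protein family), with lines for equal values and for 2-fold differences. Pou5f1 and Sohlh1 lie outside the 2-fold lines on opposite sides, and the other 6 members lie between them.

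To compare the members with each other, RPM was divided by the length of the exons of each gene (GENCODE vM21, GRCm38). Nobox was the highest member in both conditions. It had 246.5 RPM per kb in IV 5% O2, rank 77 of 14679 genes, and 134.5 RPM per kb in IV 20% O2, rank 173. The lowest member was Taf4b in both, with 13.5 RPM per kb in IV 5% O2 and 13.3 RPM per kb in IV 20% O2. The median gene compared had 4.70 and 4.19 RPM per kb, so even Taf4b was above it, with 75.3% of the genes below it in IV 5% O2 and 77.7% in IV 20% O2.

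Between these ends the order differed. In IV 5% O2 it was Nobox, Pou5f1, Lhx8, Sohlh1, Figla, Sohlh2, Tbpl2 and Taf4b. No interval between neighbours held 1, and the closest pair was Sohlh1 and Figla, with a ratio of 1.06 (1.02 to 1.10). In IV 20% O2 it was Nobox, Sohlh1, Lhx8, Pou5f1, Figla, Tbpl2, Sohlh2 and Taf4b. By merged exons, Lhx8, Pou5f1 and Figla could not be separated there, since the ratio of Lhx8 to Pou5f1 was 1.03 (0.986 to 1.07) and that of Pou5f1 to Figla 1.01 (0.953 to 1.07). Pou5f1 had 133.1 RPM per kb in IV 5% O2 (rank 177) and 48.9 RPM per kb in IV 20% O2 (rank 709). Sohlh1 moved the other way, with 35.9 RPM per kb in IV 5% O2 (rank 1254) and 94.2 RPM per kb in IV 20% O2 (rank 280). Of the sum of all members per kb, Pou5f1 held 23.5% in IV 5% O2 and 11.1% in IV 20% O2, and Sohlh1 6.33% and 21.4%. The level of Pou5f1 depends on the length used. With the longest transcript it was 219.6 RPM per kb in IV 5% O2 and 80.7 RPM per kb in IV 20% O2, where Lhx8 had 61.2 and Figla 53.4, so the 3 no longer lay together. With that length, Sohlh1 and Figla changed places in IV 5% O2 and Lhx8 and Pou5f1 in IV 20% O2.

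**Figure D4:**
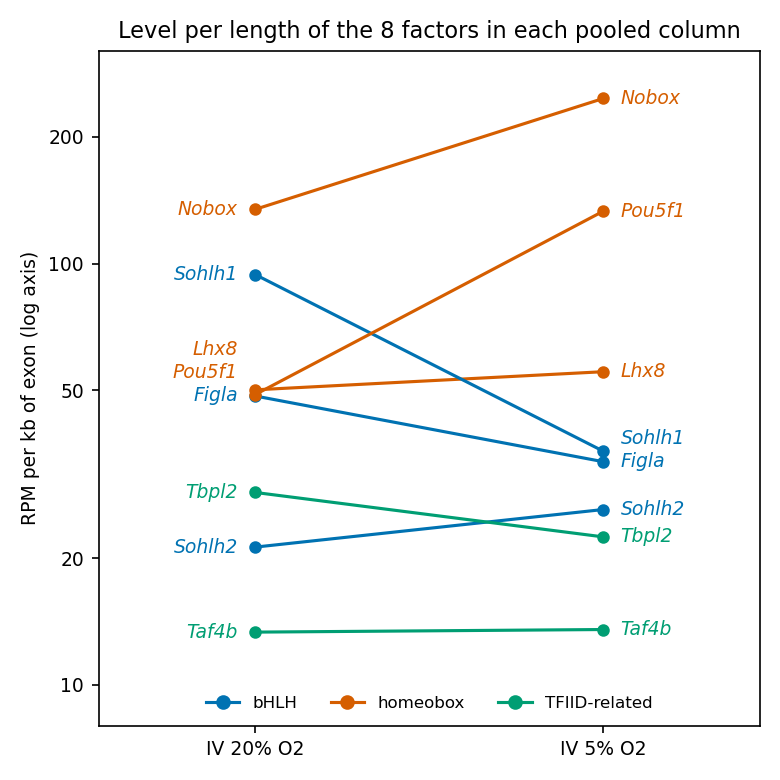
RPM per kb of exon (log axis) of the 8 members in the IV 20% O2 and IV 5% O2 columns, with 1 line per gene, coloured by protein family. The lines of Pou5f1 and Sohlh1 cross, Nobox is highest and Taf4b lowest in both, and Lhx8, Pou5f1 and Figla lie together at 48.5 to 50.2 RPM per kb in IV 20% O2 with merged exons as the length (53.4 to 80.7 with the longest transcript).

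The ratios between members were compared for all 28 pairs, because a single scaling factor per column leaves them as they are. The change of the ratio passed 2-fold in 13 pairs, and its counting interval (a normal approximation) held no change in 0 pairs. Pou5f1 over Sohlh1 changed most, from 0.519 in IV 20% O2 to 3.71 in IV 5% O2, which is 7.15-fold (6.807 to 7.501). Nobox over Sohlh1 was 1.43 in IV 20% O2 and 6.87 in IV 5% O2, a 4.81-fold change. Pou5f1 changed 3.90-fold against Figla and 3.47-fold against Tbpl2. The smallest change was that of Lhx8 to Taf4b, at 1.09-fold (1.03 to 1.15), so these 2 members kept nearly the same proportion. Few other genes had the level of the most different members in both columns: 1 gene lay within 0.1 of Pou5f1 on the log2 scale, 3 of Sohlh1 and 5 of Nobox, against 22 to 52 for the other 5 members.

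The RNAs of proteins with which these factors work were also measured. Where 2 values are given together, IV 5% O2 comes first. Of 8 partners and co-factors, all compared, 2 were at least 2-fold higher in IV 5% O2 (25%) and 1 lower (12.5%), with a median difference of -0.06 as deposited, -0.33 under median-ratio scaling and -0.32 under quantile normalization, or -0.31, -0.30 and -0.38 relative to the median gene. Over all genes compared the shares were 18.7% higher and 9.22% lower as deposited, and 12.0% and 13.6% under median-ratio scaling, so with this few genes the counts of the partners were near the shares of all genes. Among the E proteins, which pair with bHLH factors, Tcf3 was higher, with 98.9 RPM in IV 5% O2 against 39.9 RPM in IV 20% O2 (difference 1.29). Tcf4, another E protein, was lower, with 5.07 and 18.9 RPM (-1.71). Per length Tcf4 had only 0.185 and 0.691 RPM per kb, below the median gene at 4.70 and 4.19. Tcf12, also an E protein of the list, was lower too, with 43.99 and 68.35 RPM (-0.62). Tcf3 was thus higher, and Tcf4 and Tcf12 lower, under each scaling. Ldb1, which binds LIM-homeobox proteins such as Lhx8, had 149.3 and 63.8 RPM (1.21). Under median-ratio scaling the differences of Tcf3 and Ldb1 were 0.97 and 0.90, just under 2-fold. The highest of the list per length was the coactivator Sub1, with 67.7 RPM per kb in IV 5% O2 and 86.5 RPM per kb in IV 20% O2.

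Of 21 genes of the general transcription machinery, all compared, 2 were at least 2-fold higher in IV 5% O2 (9.52%, beside 18.7% of all genes) and 0 lower (beside 9.22%), and the median difference was 0.17, but -0.14 under median-ratio scaling and 0.02 under quantile normalization. Relative to the median gene it was -0.09, -0.11 and -0.04, and 0 of 21 genes changed side of that gene. Both shares were under those of all genes, but with this few genes they do not set the list apart. Taf7l, a germ cell relative of Taf7, had 4.17 RPM in IV 5% O2 (551 reads) against 0.147 RPM in IV 20% O2 (6 reads), a difference of 2.17. Taf11 had 45.3 and 21.6 RPM (1.03, and 0.73 and 0.87 under the other scalings). Taf4, the somatic relative of Taf4b, had 65.5 and 39.4 RPM (0.72), whereas Taf4b itself was nearly equal as deposited. Tbp, the relative of Tbpl2, had 97.3 and 108.9 RPM (-0.16), and Tbpl1 14.9 and 27.5 RPM (-0.84), each less than 2-fold lower in IV 5% O2 as deposited. These 2 relatives were named after their values had been seen. Tbpl1 reached -1.14 under median-ratio scaling. The germ cell TFIIA gene Gtf2a1l, whose protein is known to work with Tbpl2, had 79.9 and 46.5 RPM (0.77). Gtf2b was the highest of the list per length, with 104 and 56.02 RPM per kb.

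Of 18 genes named as targets of these factors, all compared, 1 was at least 2-fold higher in IV 5% O2 (5.56%, beside 18.7% of all genes) and 4 lower (22.2%, beside 9.22%). Under median-ratio scaling 0 were higher and 5 lower (27.8%, beside 13.6% of all genes). The list is short and was chosen with earlier results of these data known. The paper had already reported reduced Zp1, Zp2 and Zp3 transcripts in 5% O2 oocytes, so these shares only describe the list. The median difference was -0.08 as deposited, -0.40 under median-ratio scaling and -0.26 under quantile normalization, or -0.34, -0.38 and -0.32 relative to the median gene. Gdf9, Dnmt1 and Nlrp14 moved above the median gene under quantile normalization. As deposited, 15 of 18 lay below the median gene. Zp2 and Zp3, which encode zona pellucida proteins, had 1537 and 690 RPM in IV 5% O2 and 3807 and 1501 RPM in IV 20% O2 (-1.31 and -1.12). Kit, the receptor of Kit ligand on the oocyte, had 148.4 and 447.6 RPM (-1.59), and Oog1 55.04 and 251.2 RPM (-2.17). Rfpl4 had 1256 and 614.1 RPM (1.03, and 0.71 and 0.81 under the other scalings). The highest per length was Gdf9 in IV 5% O2 (1155 RPM per kb), an oocyte growth factor, and Padi6 in IV 20% O2 (1608 RPM per kb), a protein of the cytoplasmic lattices. The 4 genes that were lower stayed at least 2-fold lower under both scalings.

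Of 11 pluripotency genes beside Pou5f1, 7 were in the table and 6 were compared, and 0 passed 2-fold in either direction, where 27.9% of all genes did. The median difference was 0.26 as deposited, -0.02 under median-ratio scaling and 0.05 under quantile normalization, which relative to the median gene is between -0.01 and 0.0069, and 3 of 6 lay above the median gene. Lin28a, which binds RNA, had 198.0 and 103.5 RPM (0.93), short of 2-fold. Sox2, the partner of Pou5f1 in pluripotent cells, had 0.469 RPM in IV 5% O2 (62 reads) against 0.807 RPM in IV 20% O2 (33 reads) and was under the minimum. Dppa5a was the highest per length, with 292.5 and 447.3 RPM per kb. Nanog, Utf1, Tdgf1 and Myc are not analysed here.

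**Figure D5:**
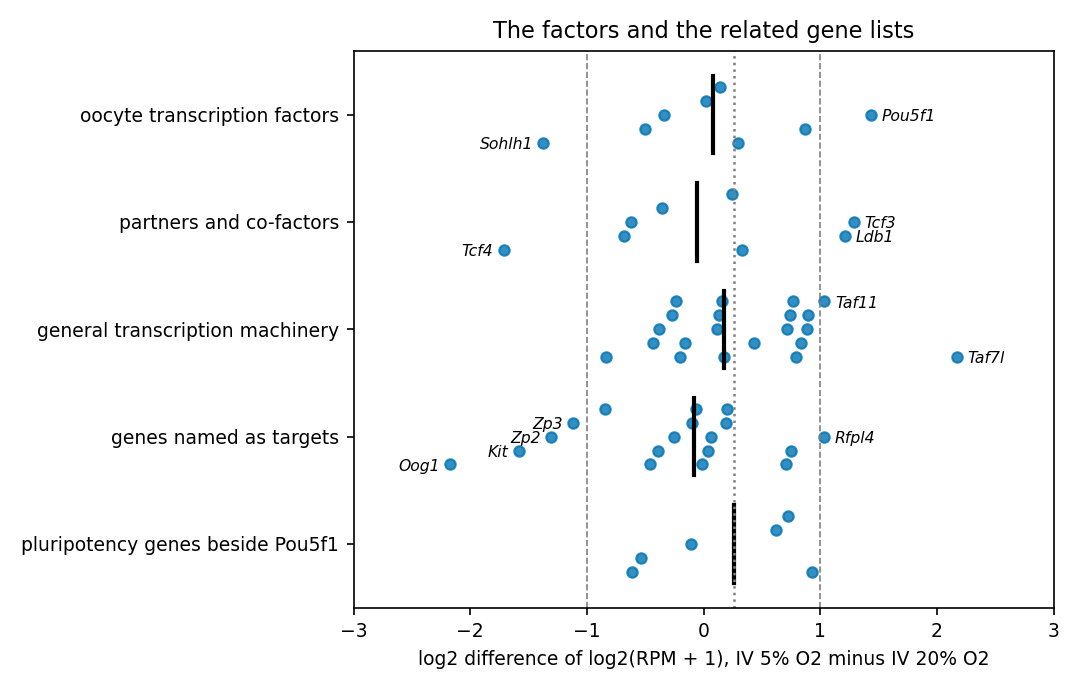
Log2(RPM + 1) in IV 5% O2 minus IV 20% O2 of each compared gene of the 8 factors, their partners and co-factors, the general transcription machinery, the genes named as targets and the pluripotency genes, 1 point per gene, with dashed lines at 2-fold, a dotted line at the median gene (0.26) and a black bar at the median of each list. The points of the genes named as targets lie mostly below the median gene, at 15 of 18, and those of the other lists lie on both sides of it.

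The labelled cell type was checked against markers. All 6 oocyte markers were present in both columns, at 120.3 to 2805 RPM, and Ddx4 and Dazl, which germ cells express throughout, had 133.0 and 323.9 RPM in IV 5% O2 and 120.3 and 319.9 RPM in IV 20% O2. The oocyte markers were not equal between the columns. Zp3 and Kit, given above, were at least 2-fold lower in IV 5% O2, Gdf9 and Bmp15 differed by -0.26 and -0.02, and the median difference of the 6 was -0.14. As deposited, all 6 lay below the median gene, but Zp3, Gdf9, Bmp15 and Kit are also among the genes named as targets. Ddx4 and Dazl, the others, lay -0.11 and -0.24 from it. Gdf9 moved above the median gene under quantile normalization. The part of these markers in the differences of the factors was not tested. The table held 9 of 14 theca and stroma markers, each of the 9 higher in IV 5% O2, with a summed level of 39.3 RPM there and 4.99 RPM in IV 20% O2. Cyp11a1, which begins steroid synthesis, was the highest of them in IV 5% O2 and had 16.4 RPM (2171 reads) there against 0.122 RPM (5 reads) in IV 20% O2, a difference of 3.96. The highest in IV 20% O2 was Fn1, at 2.3 RPM beside 4.94 RPM in IV 5% O2, and Col1a2, Vim and Dcn had 0 reads in IV 20% O2. The 6 granulosa markers in the table, of 13, summed to 41.3 and 29.8 RPM, with Fshr at 0 reads in IV 5% O2 and Inha at 0 reads in IV 20% O2. The macrophage list (3 of 7) summed to 17.9 and 21.1 RPM, with Lyz2 at 0 reads in IV 20% O2. The endothelial list (5 of 6) summed to 120.5 and 285.5 RPM, of which Vwf held 55.5 and 247.6, with Kdr at 0 reads in IV 20% O2. The part of these cells in the differences of the 8 factors was not tested.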

How the data were processed

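RNA-seq of class IV oocytes was analysed, with 2 libraries per condition. Per the study's methods and processing notes, RNA was depleted of ribosomal RNA, and the authors aligned paired-end, strand-specific reads to mm10 with TopHat2 2.0.9 and quantified an oocyte annotation in SeqMonk. The authors deposited log2 values, 1 column per condition. Whether and how the 2 libraries were combined is not given in the sources used here. A further 1 value column matched no sample and was not used here. The undone values were whole multiples of 1 read for 99.98% of the genes in each column (tolerance 0.1 of a read), so they were read as RPM without correction for length, although named RPKM. Genes listed at 0.9 of 1 read were taken as having none. The count of reads per column is an inference from that step. The planned limma test needs separate libraries and could not be used, so genes at least 2-fold apart were counted on log2(RPM + 1), for a mean of at least 1 RPM.

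All 8 members were named, with each gene of the 4 related lists that was at least 2-fold apart, the highest of each list per length, and genes on which a result turns. Taf4, Tbp, Tbpl1, Gtf2a1l, Tcf12, Lin28a and Sox2, relatives or partners of a member, were added after their values were seen. The members and lists were chosen with earlier results of these data known. Exonic length and repeated windows came from GENCODE vM21 and the GRCm38 genome (16383 genes matched by coordinates, 157 by name, 32 unmatched). Alternatives were median-ratio scaling, quantile normalization, a pseudocount of 0.1 or of 5, dropping the filter or raising it to 5 RPM, summed rows, and values undivided by length. The longest transcript as the length was added after the data were seen. The scripts were tested on simulated data. Python 3.11.15 was used with matplotlib 3.10.9, numba 0.67.0, scipy 1.17.1, pandas 2.3.3 and numpy 2.4.6. The RRBS and PBAT libraries were not analysed here.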

Additional observations from a re-analysis of the deposited data

How the results depend on the processing

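Pou5f1 and Sohlh1 were the 2 members at least 2-fold apart under every pseudocount, filter and scaling tried, with 1 in each direction. Of 32 member values under other pseudocounts and scalings, 15 stayed within the counting error, 12 moved further and 5 changed sign. Under median-ratio scaling Lhx8 was -0.175, Sohlh2 -0.0226, Taf4b -0.29 and the member median -0.24, and under quantile normalization Lhx8 was -0.058, Taf4b -0.18 and the member median -0.12. Median-ratio scaling multiplies each column by 1 factor, which lowers the log2 difference of abundant genes such as the members by nearly the same amount and that of low genes by less, and relative to the median gene no member changed sign under either scaling. Summing the rows of a gene could not move a member, since each has 1 row. For quantile normalization the cause was not tested. The genes at least 2-fold higher in IV 5% O2 numbered 1758 under median-ratio scaling, 1799 under quantile normalization, 1202 with a pseudocount of 5 and 1691 with a mean of at least 5 RPM, and with a pseudocount of 5 the lower ones numbered 706. Higher genes made up 67.0% of those 2-fold apart as deposited, 46.7% under median-ratio scaling and 49.6% under quantile normalization. Under median-ratio scaling 0 partners, 1 machinery gene and 0 targets were at least 2-fold higher, and 1 machinery gene, Tbpl1, was lower. Under quantile normalization 1 machinery gene and 0 targets were higher, and with a pseudocount of 5, 0 machinery genes. Not divided by length, 4 members changed place in IV 5% O2 and 6 in IV 20% O2, and with the longest transcript 2 did in each. No paired analysis was possible because each condition has only 1 column, and leaving out a library or a replicate block was not run for the same reason. Counting error is a lower bound on the true error of these values.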
